A study of Mus musculus with 12 samples.

Results

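The genes described here are 48 mouse genes of nucleolar ribosome assembly and of RNA polymerase I (Pol I), chosen by name in a study of macrophages treated with a PARP inhibitor. They are the symbols made of Nop, Nol, Utp or Rrp and a number, the Pol I subunits Polr1a to Polr1f, and Nolc1, Nip7, Tsr1, Wdr36, Bop1, Fbl, Ncl and Npm1. Of the 35275 genes listed in the count files, 34490 carried a name and 49 names matched, of which 48 had a mean of 10 or more counts over the 12 libraries. The rule reads names and a minimum count and no fold change, although the gene set was proposed with earlier results of these data known. Nol3 was the lowest gene kept, with a mean of 51.8 counts, and Nol4 was the one left out, with a mean of 0.0833 counts. The table lists the subunit now called Polr1f under its older symbol Twistnb, so the name rule did not take it. By their textbook roles, 5 of the genes encode Pol I subunits, 19 belong to the small-subunit processome, 4 to snoRNPs and 3 are nucleolar chaperones or scaffolds, while 12 act in 60S assembly and 3 in late steps of the 40S subunit. The remaining 2, Nol3 and Nol4l, match the name pattern but have no known role in assembly.

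All 12 libraries came from bone-marrow-derived macrophages of wildtype mice, grown for 6 days with M-CSF, IL-4 and IL-10, a mixture that drives alternative (M2) activation. DMSO, the solvent, was given to 4 cultures, olaparib, an inhibitor of poly(ADP-ribose) polymerases, to 4, and MNA (methyl-nicotinamide, an NAD derivative) to 4. The libraries are numbered 1 to 4 within each group, the marrow came from young adult mice of either sex, and the labels state neither doses nor which number belongs to which donor. The study's figure legends name 4 donor mice for the RNA sequencing and quadruplicate cultures in the olaparib experiment. They do not say which culture came from which donor, or whether the same donors supplied all groups. Because nothing in the labels says that the 4 cultures of a group were separate animals, p-values measure the spread between these libraries only. The RNA was copied with a poly(A)-based stranded kit, so ribosomal RNA, the product of Pol I, was not measured, and what follows is the mRNA of the genes that make and process it.

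Ribosomes are built in the nucleolus around one long ribosomal RNA precursor that Pol I transcribes from repeated ribosomal DNA. The small-subunit processome, assembled around the U3 snoRNP, folds and cuts the part of the precursor that becomes the small (40S) subunit, box C/D and H/ACA snoRNPs guide its methylation and pseudouridylation, and separate sets of factors build the large (60S) subunit and escort both subunits to the cytoplasm. The genes of this programme are known to be transcribed together and to follow cell growth, and many are known targets of MYC, which binds the E-box CACGTG. Macrophages grown in M-CSF are growing and dividing cells, in which this programme is active.

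The promoters of 4 of the genes are printed as examples of those that hold an E-box near the start of transcription. Each runs from 250 bases before the RefSeq start to 30 bases after it (280 bases, GRCm38.p6, 5′ to 3′ on the gene's strand), with CACGTG, which reads alike on both strands, in capitals. Tsr1 (chr11:74897830-74898109, plus strand, box at base 25 after the start) encodes a late 40S assembly factor, and Nop2 (chr6:125131633-125131912, plus strand, box at position -60) a 60S factor that methylates ribosomal RNA. Utp4 (chr8:106893390-106893669, plus strand, box at base 16) and Utp18 (chr11:93885737-93886016, minus strand, box at position -20) encode processome proteins.
Tsr1: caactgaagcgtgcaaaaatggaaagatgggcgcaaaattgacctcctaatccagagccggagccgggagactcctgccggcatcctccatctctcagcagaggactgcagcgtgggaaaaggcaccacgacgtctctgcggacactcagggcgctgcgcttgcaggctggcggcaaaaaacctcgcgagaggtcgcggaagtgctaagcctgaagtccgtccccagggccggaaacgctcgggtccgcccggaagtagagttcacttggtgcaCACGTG
Nop2: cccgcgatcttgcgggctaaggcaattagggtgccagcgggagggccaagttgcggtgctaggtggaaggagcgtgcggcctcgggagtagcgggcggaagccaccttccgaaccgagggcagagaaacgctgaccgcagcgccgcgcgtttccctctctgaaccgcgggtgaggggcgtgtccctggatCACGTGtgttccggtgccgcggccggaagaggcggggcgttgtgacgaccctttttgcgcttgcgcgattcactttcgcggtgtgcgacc
Utp4: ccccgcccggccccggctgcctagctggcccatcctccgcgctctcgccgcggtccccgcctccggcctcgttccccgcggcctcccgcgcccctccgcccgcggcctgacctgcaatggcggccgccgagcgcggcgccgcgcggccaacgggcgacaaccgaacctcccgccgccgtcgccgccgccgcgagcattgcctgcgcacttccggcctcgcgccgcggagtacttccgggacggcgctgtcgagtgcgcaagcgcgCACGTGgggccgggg
Utp18: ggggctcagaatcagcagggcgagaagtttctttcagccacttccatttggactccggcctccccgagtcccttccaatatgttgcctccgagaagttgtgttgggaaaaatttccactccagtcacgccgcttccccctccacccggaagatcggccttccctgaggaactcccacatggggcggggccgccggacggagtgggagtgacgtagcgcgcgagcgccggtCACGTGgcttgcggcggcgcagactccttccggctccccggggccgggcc

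The promoter table held 37 of the 48 genes, and 8 of those 37 (21.6%) had CACGTG within the 300 bases from 250 before to 50 after a start. The share was 11.9% of the 9736 tested genes with a promoter in the table and 8.09% of all 27025 such genes. The other genes with a box were Nol11 (position -43), Rrp7a (-208), Utp14b (-63) and Utp20 (base 38 after the start), so some unprinted boxes lie as near the start as the printed ones. CCGGAAG, the core of an ETS-factor motif, was found on either strand in 37.8% of the genes (tested genes 20.6%, all genes 9.93%), the NRF1 motif in 13.5% (11.7% and 5.19%), GGGCGG in 78.4% (68.2% and 38.2%), CCAAT in 32.4% (43.0% and 41.1%) and TATAAA in 8.11% (8.42% and 15.7%). None of these motifs contains another, and a match describes letters only.

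Library totals ran from 21146291 to 31446849 counts. Of 7 macrophage markers, Csf1r, Cd68, Itgam, Adgre1, Lyz2 and Mertk were read in every library, and Fcgr1 stayed between 0.116 and 2.30 CPM (a gene's counts scaled to a library of fixed size, with TMM scaling). Summed B-cell and T- or NK-cell markers stayed at or below 3.09 and 3.22 CPM, and 7 neutrophil markers summed to between 1.18 and 8.86 CPM except in MNA replicate 4, at 56.4 CPM, whose part in the MNA results was not tested. The same library had the highest erythroid sum, at 5.95 CPM. The 4 dendritic-cell markers summed to 12.4 to 20.9 CPM over the 12 libraries, with Zbtb46 alone at 11.0 to 19.7 CPM, beside 13.4 to 42.9 CPM for the macrophage marker Mertk. The library labelled MNA replicate 2 stood apart from its group. On the first principal component (49.8% of the variance) it lay at -36.0, among the DMSO libraries (-43.7 to -33.6), while the other MNA libraries lay between 59.9 and 63.4 and the olaparib libraries between -2.51 and 7.79. The summed level of 4 alternative-activation genes, Arg1, Mrc1, Chil3 and Retnla, was 31732 CPM in it against 942 to 1401 CPM in the other MNA libraries and 32877 to 53277 CPM with DMSO. The counts that use MNA, and most single-gene values, are therefore given with and without this library, and its label was not changed.

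The 48 genes took 0.240% to 0.260% of all counts with DMSO, 0.203% to 0.224% with olaparib, 0.225% to 0.237% in MNA replicates 1, 3 and 4 and 0.259% in MNA replicate 2. A CPM is a share of a library's mRNA, and in cultures measured in bulk, fewer cells of a type and less RNA per cell cannot be told apart. Nucleolin (Ncl) and nucleophosmin (Npm1), abundant nucleolar proteins, made up 15.6% and 11.3% of the summed level of the 48 genes with DMSO. Per kilobase of exon, Npm1 was highest with DMSO at 106 CPM per kb, followed by Rrp1 at 40.9, Ncl at 38.4 and Nop10 at 28.8, and Nol3 was lowest at 0.414. The 5 Pol I subunits ranged from 18.7 CPM per kb for Polr1d to 1.71 for Polr1e, with Polr1c at 10.2, Polr1a at 4.23 and Polr1b at 3.46.

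The first comparison asked what PARP inhibition did to this programme. With olaparib, 27 of the 48 genes fell and 1, Nol4l, rose. The genes that fell came from every assembly role and included both large Pol I subunits. A gene was called when its adjusted p from edgeR's quasi-likelihood test was under 0.05, with Benjamini-Hochberg adjustment over 12849 genes. The 27 are 56.3% of the genes, beside 12.8% of all tested genes called lower and 14.3% called higher. The falls were moderate, from -0.89 to -0.17 on the log2 scale, and the median over the 48 genes was -0.28 against 0.00 over all tested genes. In all 27 the 4 olaparib libraries lay below the 4 DMSO libraries, and Nop16 did so without being called. Groups that did not overlap in that direction made up 20.3% of all tested genes, and 20.7% in the other direction, which here held Nol4l and Nop53. Each olaparib library had 34 of the 48 genes below the lowest DMSO library, against 32.8% to 34.3% of all tested genes. Of the 20 genes not called, 11 had negative and 9 positive fold changes, between -0.28 and 0.42.

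The calls were not all equally firm. Leaving out 1 library at a time moved the count of genes called lower between 17, without olaparib replicate 4, and 32, without MNA replicate 2, whose spread enters the common fit. In that fit without MNA replicate 2, the 32 genes were 66.7% of the 48, beside 21.2% of 13023 tested genes called lower and 22.5% called higher. The call held in every such fit for 14 of the 27, namely Nop2, Nol12, Nol9, Polr1b, Polr1a, Nop58, Tsr1, Rrp12, Nolc1, Ncl, Wdr36, Nop14, Utp4 and Utp14b, and was lost in at least 1 fit for the other 13. The summed level of 24 cell division genes came to 131% to 171% of the DMSO mean with olaparib. The summed macrophage markers were also higher with olaparib (8451 to 10185 CPM against 3864 to 5000). Of the 7 markers, 4 were called higher and 1 lower, beside 14.3% and 12.8% of all tested genes. The part of the cell division genes or of these markers in the fall of the assembly genes was not tested.

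**Figure D1:**
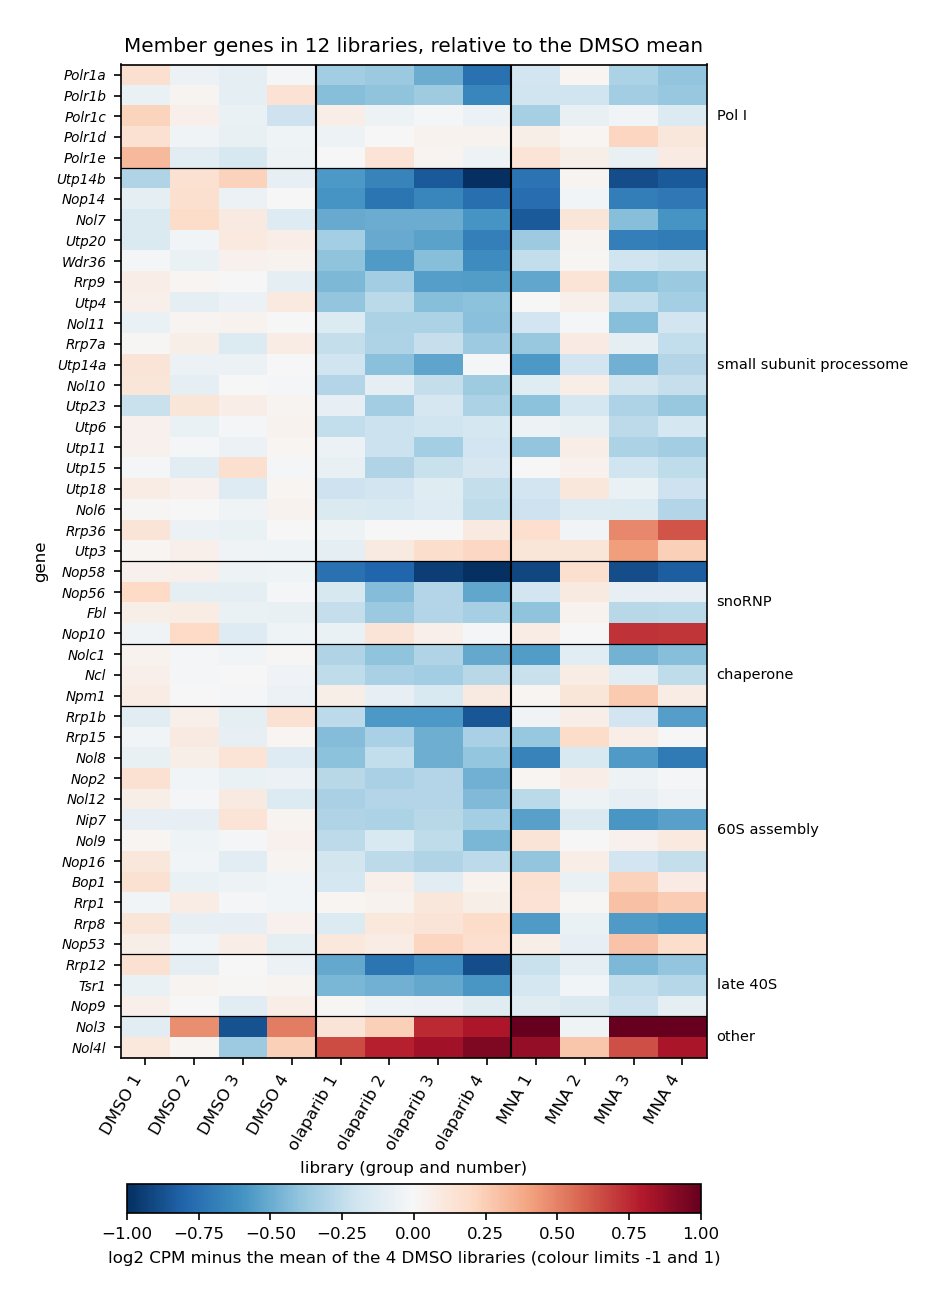
Heatmap of the 48 genes (rows, grouped by role) in the 12 libraries (columns); colour gives log2 CPM minus the mean of the 4 DMSO libraries, blue lower and red higher, limited to -1 and 1. The 4 olaparib columns are blue over most rows and red for Nol4l, and the column of MNA replicate 2 resembles the DMSO columns rather than the other MNA columns.

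Among the Pol I subunits that the name rule took, both large subunits that form the catalytic centre fell with olaparib, while the small ones stayed close to DMSO. Twistnb (Polr1f), a further Pol I subunit that the rule did not take, also fell with olaparib and is given with the other Pol I genes below. Polr1a (chr6:71909053-71984935 in GRCm38) stood at 55.9, 48.1, 47.1 and 49.7 CPM with DMSO and at 39.3, 38.7, 35.6 and 29.9 CPM with olaparib. The groups did not overlap, and the log2 fold change was -0.48 ± 0.11 (SE, n = 4 and 4, adjusted p = 0.00731). Polr1b was at 19.1, 20.4, 18.7 and 22.2 CPM with DMSO and at 14.9, 15.2, 15.6 and 12.8 CPM with olaparib, again without overlap (-0.46 ± 0.09, adjusted p = 0.00388). Polr1c and Polr1d, which Pol I shares with Pol III, overlapped between the groups. Polr1c read 26.9, 23.9, 22.0 and 19.9 CPM with DMSO and 24.2, 22.3, 22.9 and 22.1 with olaparib (-0.02 ± 0.10, adjusted p = 0.897). Polr1d read 63.2, 55.5, 54.0 and 55.1 CPM with DMSO and 54.97, 56.9, 58.2 and 58.3 with olaparib (0.00 ± 0.06, adjusted p = 0.971), and 11.6% of its 31-base words also occur in other genes. Polr1e, a Pol I-associated subunit, read 8.30, 6.09, 5.90 and 6.38 CPM with DMSO and 6.61, 7.27, 6.73 and 6.38 with olaparib (0.02 ± 0.12, adjusted p = 0.915). For these 3 small subunits the estimate lay within 1 SE of no change, and a p above the threshold does not show that they were equal.

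In the small-subunit processome, 11 of 19 genes fell with olaparib, beside 12.8% of all tested genes. The median of the 19 was -0.28, and their summed level was 78.2% to 83.1% of the DMSO mean. Wdr36, a subunit of the UtpB subcomplex, had the second smallest p of the 48 genes in this comparison. It read 44.1, 42.6, 45.9 and 45.6 CPM with DMSO and 33.6, 30.0, 33.1 and 28.7 CPM with olaparib. The groups were well apart, with means of 44.5 ± 1.54 and 31.3 ± 2.36 (SD, n = 4 each) and a log2 fold change of -0.51 ± 0.07 (SE, adjusted p = 0.000886). Nop14 (chr5:34638536-34660148), which helps to build the head of the 40S subunit, read 48.7, 58.1, 50.1 and 51.9 CPM with DMSO and 34.5, 31.4, 33.1 and 30.9 CPM with olaparib. Its fall was -0.68 ± 0.14 (adjusted p = 0.00551). Utp14b and Utp20 are named after their values were seen, for the size of the change and for the scaffold role of Utp20. Utp14b, the retrogene copy of the X-linked Utp14a, went from 13.4, 18.2, 19.3 and 15.5 CPM to 10.99, 10.3, 9.17 and 6.90 CPM (-0.83 ± 0.22, adjusted p = 0.0155). Utp14a itself was at -0.28 (adjusted p = 0.105), with 14.6% of its words shared with other genes. Utp20 went from 64.3, 69.6, 75.9 and 74.3 CPM to 55.9, 49.98, 48.8 and 44.0 CPM (-0.52, adjusted p = 0.0206). The Utp20 call was lost without DMSO replicates 3 or 4 or olaparib replicates 3 or 4, at an adjusted p of up to 0.0628. The other 7 genes called were Utp4, Nol11, Utp6, Rrp9, Rrp7a, Nol7 and Nol6, from -0.53 for Nol7 to -0.17 for Nol6. Among the 8 not called, only Rrp36 (0.01) and Utp3 (0.10) had positive estimates.

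The box C/D snoRNP proteins fell together. Nop58, which with Nop56 and the methyltransferase fibrillarin (Fbl) forms the protein core of the box C/D snoRNP, showed the largest fall of all 48 genes, and is named for that after its values were seen. Nop58 (chr1:59684971-59719044) read 57.6, 57.9, 54.1 and 54.3 CPM with DMSO and 33.2, 32.2, 29.0 and 26.4 CPM with olaparib. The means were 56.0 ± 2.07 and 30.2 ± 3.11 CPM (SD, n = 4 each), a log2 fold change of -0.89 ± 0.21 (SE, adjusted p = 0.00934). Fbl read 67.0, 67.9, 61.6 and 61.3 CPM with DMSO and 54.6, 49.7, 52.5 and 51.1 CPM with olaparib (-0.31 ± 0.09, adjusted p = 0.0208), and its call was lost without DMSO replicate 2 (0.0592), olaparib replicate 2 (0.0574) or olaparib replicate 4 (0.0543). Nop56 changed by -0.35 (adjusted p = 0.0185), a call lost without olaparib replicate 2 (0.0525) or 4 (0.0591). Of the words of Fbl and Nop56, 21.8% and 22.4% also occur in other genes. Nop10, an H/ACA protein, stayed at 0.02 (adjusted p = 0.927).

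Of the chaperones and scaffolds, nucleolin and Nolc1 fell and nucleophosmin did not pass the test. Ncl (chr1:86344719-86359400), which binds nascent ribosomal RNA, read 404, 387, 391 and 382 CPM with DMSO and 328, 312, 307 and 323 CPM with olaparib (-0.30 ± 0.07, adjusted p = 0.0113). Nolc1, a snoRNP chaperone also called Nopp140, read 66.0, 63.5, 63.4 and 65.0 CPM with DMSO and 52.3, 48.9, 52.4 and 45.2 CPM with olaparib (-0.38 ± 0.09, adjusted p = 0.0106). For both, every olaparib library was below every DMSO library. Npm1 read 298, 282, 281 and 272 CPM with DMSO and 295, 268, 254 and 301 CPM with olaparib, and the groups overlapped (-0.02 ± 0.07, adjusted p = 0.868). Npm1 has many processed copies in the genome, and 29.4% of its 31-base words also occur in other genes, so its count is uncertain.

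In 60S assembly, 7 of 12 genes fell with olaparib, with a median of -0.30, beside 12.8% of all tested genes called lower. Nop2, the methyltransferase whose promoter is printed above, read 50.1, 44.0, 43.0 and 43.3 CPM with DMSO and 37.1, 35.9, 36.6 and 32.2 CPM with olaparib. Its log2 fold change was -0.35 ± 0.07 (adjusted p = 0.00412). Nol9, a polynucleotide kinase that takes part in processing the spacer between the large-subunit RNAs, read 42.7, 40.9, 41.7 and 43.5 CPM with DMSO and 35.1, 37.9, 35.4 and 30.7 CPM with olaparib (-0.28 ± 0.07, adjusted p = 0.0112). Neither gene's groups overlapped. Nip7 read 27.8, 27.9, 32.4 and 30.1 CPM with DMSO and 23.9, 23.7, 24.4 and 23.2 CPM with olaparib (-0.31 ± 0.10, adjusted p = 0.0321). Nol8 read 27.7, 30.3, 32.0 and 26.5 CPM with DMSO and 21.9, 24.4, 20.7 and 22.2 CPM with olaparib (-0.39 ± 0.12, adjusted p = 0.0303). These 2 calls were the less firm: Nip7 lost it without DMSO replicate 3 (0.0934) or 4 or any olaparib library, and Nol8 without DMSO replicate 2 or 3 (0.0866) or olaparib replicate 1, 3 or 4. The other genes called were Nol12 (-0.34), Rrp15 (-0.40) and Rrp1b (-0.56).

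Not all 60S genes fell. Bop1, a core member of the PeBoW complex, read 51.4, 44.2, 44.6 and 45.4 CPM with DMSO and 40.9, 48.1, 42.9 and 47.5 CPM with olaparib (-0.05 ± 0.08, adjusted p = 0.685). Rrp8 (nucleomethylin), which methylates an adenine of the large ribosomal RNA and is also known from a complex that silences ribosomal DNA, read 36.9, 32.1, 32.2 and 35.1 CPM with DMSO and 30.9, 36.6, 37.2 and 38.6 CPM with olaparib (0.07 ± 0.12, adjusted p = 0.669). The groups of both genes overlapped.

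Of the 3 late 40S factors, Tsr1 had the smallest p of the 48 genes and Rrp12 the third smallest. Tsr1, a GTPase-like protein that caps the pre-40S particle (chr11:74898071-74909342), read 29.2, 31.1, 30.8 and 31.1 CPM with DMSO and 22.3, 21.8, 21.4 and 20.4 CPM with olaparib. The olaparib mean was 70.3% of the DMSO mean (21.5 ± 0.807 against 30.6 ± 0.921 CPM, SD, n = 4 each), a log2 fold change of -0.51 ± 0.07 (SE, adjusted p = 0.000491). Tsr1 shares 33.2% of its 31-base words with other genes, 28.8% with the neighbouring gene Srr, so its count may hold reads of Srr. Rrp12 (chr19:41862851-41896173), which takes part in export of the 40S subunit, read 36.0, 30.2, 32.4 and 31.1 CPM with DMSO and 22.7, 19.5, 20.9 and 17.5 CPM with olaparib. It fell by 0.69 on the log2 scale (-0.69 ± 0.10, adjusted p = 0.000935). Nop9 was at -0.05 (adjusted p = 0.499).

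Nol4l, which the name pattern took although it is not known as an assembly factor, was the one gene that rose. It read 11.1, 10.4, 7.94 and 12.1 CPM with DMSO and 16.1, 17.7, 18.4 and 19.7 CPM with olaparib. All olaparib libraries lay above all DMSO libraries, with a mean of 173% of DMSO (0.79 ± 0.15, adjusted p = 0.00344).

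**Figure D2:**
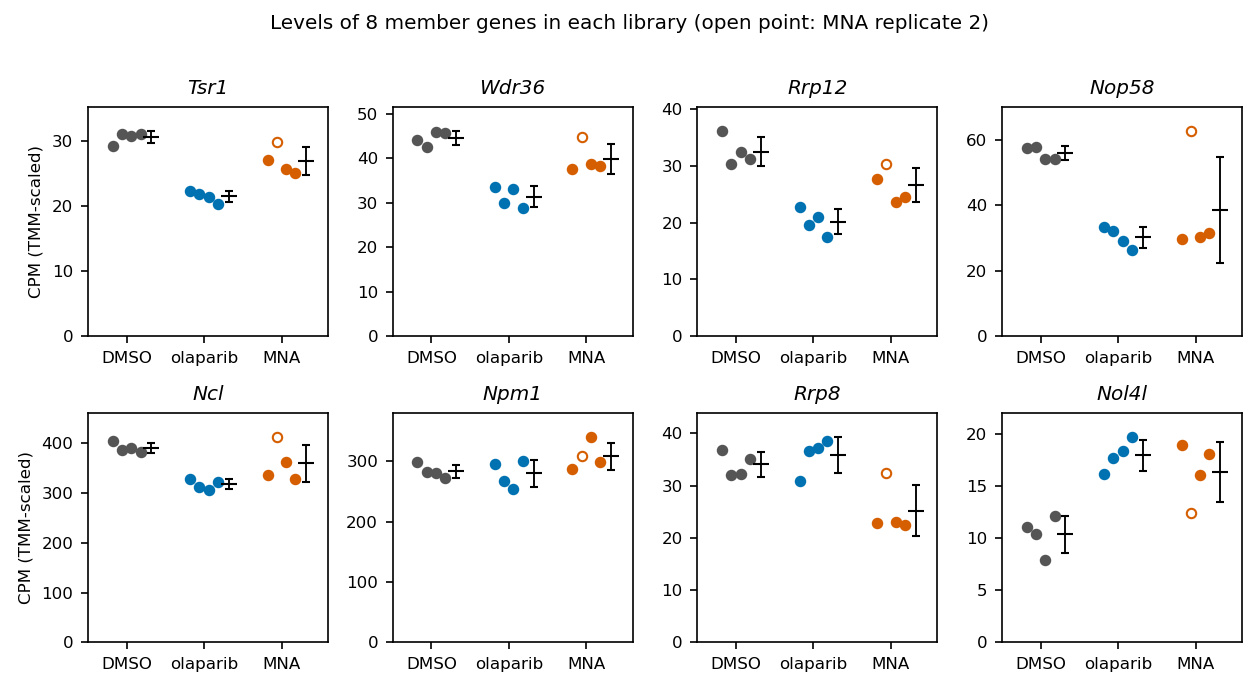
TMM-scaled CPM of 8 of the genes in each library (y axis from 0), grouped by treatment on the x axis; filled points are libraries, the open point is MNA replicate 2, and the bar at the right of each group is the mean ± SD of its 4 libraries. Tsr1, Wdr36, Rrp12, Nop58 and Ncl are lower in all 4 olaparib libraries than in any DMSO library, Npm1 and Rrp8 overlap, and Nol4l is higher.

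The second comparison asked whether MNA moved the same genes. It shares its DMSO libraries with the first comparison, so the values are given side by side and no agreement between them is tested. With all 4 MNA libraries, 10 of the 48 genes fell (20.8%, beside 12.3% of all tested genes called lower and 16.3% called higher) and Nol4l rose. The 10 were Nip7, Nol8, Rrp8, Polr1b, Rrp12, Nolc1, Nop14, Nol6, Utp23 and Utp14a, from -0.52 to -0.19, and the median over the 48 genes was -0.15. In 7 of the 10 the groups did not overlap, which 6.12% of all tested genes showed in that direction and 6.24% in the other, there Nol4l and Utp3. Without MNA replicate 2, 25 genes fell (52.1%, beside 26.9% of 13023 tested genes called lower and 27.2% called higher), 7 rose, and the median was -0.21. MNA replicate 2 had 10 of the 48 genes below the lowest DMSO library, against 31, 29 and 30 in MNA replicates 1, 3 and 4. Over all tested genes these shares were 16.2% in MNA replicate 2 and 37.1% to 38.9% in the others, so the count in MNA replicate 2 was near the share of all genes. Without MNA replicate 3, or without MNA replicate 4, no member passed with edgeR, although 11 and 12 genes were lower and 2 and 4 higher at an unadjusted p under 0.05. DESeq2 was not run on those subsets, and on all 12 libraries it called 14 lower and 6 higher. The count of genes called lower was also 4, 3 and 3 without DMSO replicates 2, 3 and 4 and 1 without MNA replicate 1.

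Nip7, with 11.2% of its 31-base words shared with other genes, had the smallest p with MNA. It read 20.2, 26.7, 19.7 and 20.2 CPM in MNA replicates 1 to 4, against 27.8 to 32.4 CPM with DMSO (-0.45 ± 0.10, adjusted p = 0.0151, and -0.56, adjusted p = 1.14e-05 without MNA replicate 2). Nol8 read 18.3, 26.1, 19.6 and 17.8 CPM (-0.51 ± 0.12, adjusted p = 0.0165, and -0.65, adjusted p = 1.88e-05). Nolc1 read 43.7, 59.7, 46.5 and 47.9 CPM (-0.38 ± 0.09, adjusted p = 0.0168, and -0.49, adjusted p = 1.45e-05). In all 3 genes the second library was the highest of the MNA group, yet below the DMSO libraries. Nop14 read 30.7, 51.0, 32.2 and 31.8 CPM (-0.52 ± 0.14, adjusted p = 0.0242, and -0.73, adjusted p = 1.21e-06), and there the second library lay among the DMSO libraries. Rrp12 read 27.7, 30.2, 23.7 and 24.6 CPM (-0.29 ± 0.10, adjusted p = 0.0491, and -0.36, adjusted p = 0.00552).

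Rrp8 differed from its course with olaparib. It read 22.9, 32.5, 23.0 and 22.4 CPM with MNA, so that 3 libraries lay far below the lowest DMSO library at 32.1 CPM and the second lay just inside the DMSO range (-0.43 ± 0.12, adjusted p = 0.0246, and -0.58, adjusted p = 3.98e-05 without MNA replicate 2). Nop2 read 45.6, 47.1, 43.4 and 44.6 CPM and Nol9 46.2, 42.0, 43.4 and 45.2 CPM, both overlapping DMSO (0.00, adjusted p = 0.977, and 0.07, adjusted p = 0.458, and without MNA replicate 2 -0.02 and 0.09, adjusted p = 0.839 and 0.287). Nol4l read 18.9, 12.4, 16.1 and 18.1 CPM, all above the highest DMSO library at 12.1 CPM (0.66 ± 0.15, adjusted p = 0.0161, and 0.77, adjusted p = 0.000146).

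Of the Pol I subunits, Polr1b passed the test with MNA. Polr1a read 43.9, 50.9, 40.3 and 38.2 CPM (-0.21, adjusted p = 0.14, and -0.30, adjusted p = 0.0144 without MNA replicate 2), with the second library again inside the DMSO range. Polr1b read 17.5, 17.4, 15.7 and 15.4 CPM, below DMSO throughout (-0.28 ± 0.09, adjusted p = 0.0351, and -0.31, adjusted p = 0.0108). Polr1c, Polr1d and Polr1e read 18.3 to 22.6, 57.8 to 65.8 and 6.25 to 7.28 CPM, with adjusted p-values of 0.254, 0.23 and 0.809, and of 0.178, 0.101 and 0.808 without MNA replicate 2.

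Several genes that did not pass with all 12 libraries passed when the second MNA library was set aside. Nop58 read 29.8, 62.6, 30.2 and 31.6 CPM with MNA, so that 3 libraries stood near the olaparib level and the second above every DMSO library (-0.54, adjusted p = 0.064, and -0.88, adjusted p = 4.6e-07). With all 12 libraries DESeq2 also called it (adjusted p = 0.0355). Fbl read 48.7, 66.1, 53.1 and 53.3 CPM (-0.22, adjusted p = 0.0684, and -0.32, adjusted p = 0.000489). Ncl read 335, 412, 363 and 328 CPM (-0.12, adjusted p = 0.208, and -0.20, adjusted p = 0.00874). In both genes the second library lay among or above the DMSO libraries and the others below them. Wdr36 read 37.6, 44.8, 38.8 and 38.2 CPM (-0.16, adjusted p = 0.111, and -0.22, adjusted p = 0.00908), and Tsr1 27.0, 29.9, 25.7 and 25.1 CPM (-0.18, adjusted p = 0.057, and -0.24, adjusted p = 0.00467, with an adjusted p of 0.0457 by DESeq2 on all 12 libraries). In the processome as a whole, 4 of 19 genes fell with all libraries, beside 12.3% of all tested genes. Without the second library 13 fell and Utp3 and Rrp36 rose, beside 26.9% and 27.2% of all tested genes. The summed level of the 19 genes was 82.5%, 84.2% and 81.5% of the DMSO mean in MNA replicates 1, 3 and 4 and 101% in MNA replicate 2.

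The 7 genes higher without MNA replicate 2 were Nol4l, Rrp1, Nop53, Nop10, Utp3, Rrp36 and Nol3. Nop10 and Nol3 are described after their values were seen. Nop10 read 31.03, 36.6, 29.1 and 30.95 CPM with DMSO and 33.4, 31.7, 52.5 and 52.2 CPM with MNA, so the rise stood in MNA replicates 3 and 4 (0.41, adjusted p = 0.0643, and 0.53, adjusted p = 0.0036). Nol3, a known repressor of apoptosis with 46.8% of its words shared with other genes, read 1.13, 1.72, 0.637 and 1.78 CPM with DMSO and 3.41, 1.18, 3.01 and 3.66 CPM with MNA (1.09, adjusted p = 0.0500018, and 1.34, adjusted p = 0.00195). Npm1 read 287, 308, 339 and 299 CPM and Bop1 51.6, 44.2, 54.5 and 49.0 CPM with MNA, with adjusted p-values of 0.209 and 0.347, and of 0.189 and 0.0916 without MNA replicate 2.

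**Figure D3:**
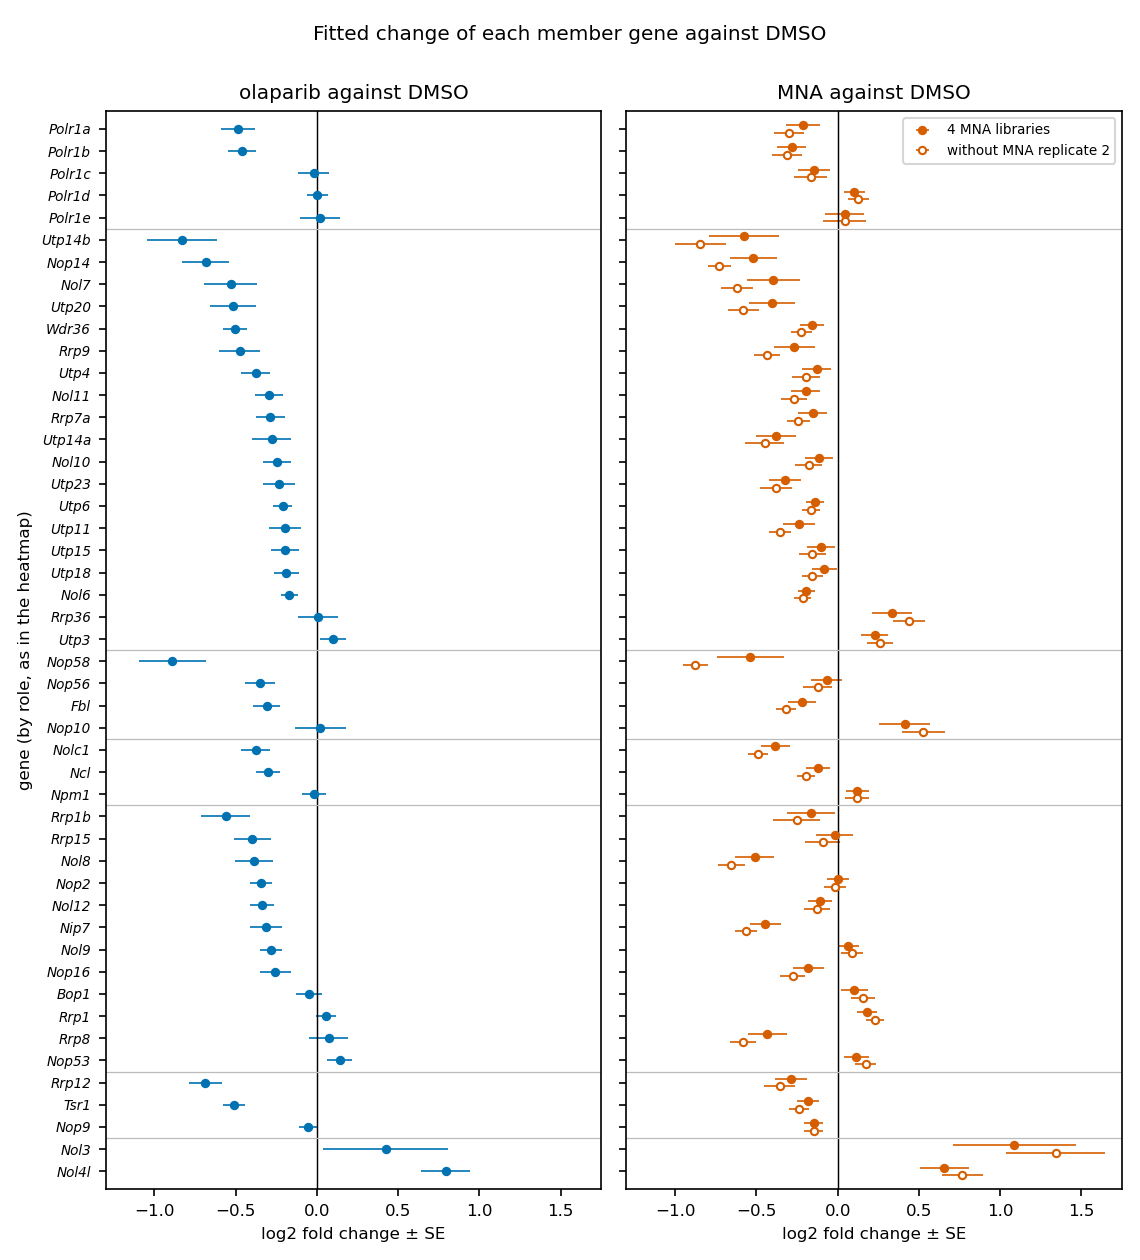
Fitted log2 fold change against DMSO (x axis, bars ± SE) of each of the 48 genes (rows, grouped by role) for olaparib (left) and MNA (right, filled points with all 4 MNA libraries and open points without MNA replicate 2). Most points lie left of 0, with Nop58 at -0.89 on the left, and most open points on the right lie further from 0 than the filled ones.

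The third comparison set olaparib against MNA directly. With all libraries, 7 of the 48 genes were lower with olaparib than with MNA (14.6%, beside 10.9% of all tested genes called lower and 10.9% called higher), namely Nop2, Nol9, Tsr1, Wdr36, Rrp12, Rrp15 and Nol12, and Rrp8 was higher. The calls of Rrp15 and Nol12 were lost without any 1 of the olaparib libraries or without MNA replicate 3 or 4, at adjusted p-values of up to 0.0892 and 0.118, and that of Nol12 also without DMSO replicate 1, 2 or 3. Groups that did not overlap were found for 6 of the 48, all lower with olaparib, against 9.69% of all tested genes in that direction and 11.5% in the other. Without MNA replicate 2, 12 genes were lower and 3 higher with olaparib, beside 20.7% and 21.5% of all tested genes. The differences were -0.35 ± 0.07 for Nop2 (SE, adjusted p = 0.00403) and -0.35 ± 0.07 for Nol9 (adjusted p = 0.00406), and -0.33 (adjusted p = 0.00162) and -0.37 (adjusted p = 0.000601) without MNA replicate 2. Tsr1 differed by -0.33 ± 0.07 (adjusted p = 0.00552), Wdr36 by -0.35 ± 0.07 (adjusted p = 0.00674) and Rrp12 by -0.40 ± 0.10 (adjusted p = 0.016). Without MNA replicate 2 these 3 differences were -0.27, -0.28 and -0.33, with adjusted p-values of 0.00286, 0.00274 and 0.0126. Rrp8 was the reverse case, with 30.9 to 38.6 CPM in the olaparib libraries and 22.4 to 32.5 CPM in the MNA libraries (0.51 ± 0.12, adjusted p = 0.0113, and 0.65, adjusted p = 2.51e-05 without MNA replicate 2). Nip7 (0.13, adjusted p = 0.362) and Nol8 (0.12, adjusted p = 0.486) joined Rrp8 without the second MNA library, at 0.25 (adjusted p = 0.0103) and 0.27 (adjusted p = 0.0208). For Nop58 the difference of -0.35 ± 0.21 (adjusted p = 0.247) became -0.01 (adjusted p = 0.899) without that library.

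Assembly genes that the name rule did not take were also among those called lower with olaparib, which held for 12.8% of all tested genes. Of 36 other small-subunit factors, 17 fell with olaparib and 19 did not pass, with a median of -0.26, led by Wdr43 (-0.58, adjusted p = 0.00336), Ddx49 (-0.34, adjusted p = 0.00379) and Heatr1 (-0.50, adjusted p = 0.00404), all processome proteins or helicases. Of 48 other large-subunit factors tested, 19 fell and 29 did not pass, with a median of -0.21, led by Rpf1 (-0.43, adjusted p = 0.00222), Urb2 (-0.42, adjusted p = 0.0032) and Ebna1bp2 (-0.41, adjusted p = 0.00338). Of 13 other snoRNP proteins and their assembly factors, 7 fell and 6 did not pass, with a median of -0.32, with Shq1, an H/ACA chaperone, at -0.50 (adjusted p = 0.00724), Ruvbl2 at -0.42 (adjusted p = 0.00934) and Tcof1, the nucleolar protein treacle, at -0.63 (adjusted p = 0.0146). The small-subunit count was 7 to 11 without any 1 DMSO library or olaparib replicate 2, 3 or 4. It was 27 without MNA replicate 2, beside 21.2% of all tested genes. The large-subunit count was 8 to 12 without DMSO replicate 4 or olaparib replicate 2, 3 or 4, and the snoRNP count 3 to 4 without DMSO replicate 2, 3 or 4 or olaparib replicate 2 or 4. Of the 14 RNA exosome genes, which trim ribosomal RNA precursors, 4 fell, led by Dis3 (-0.35), Exosc5 (-0.30) and Exosc3 (-0.35), and Exosc5 fell with MNA (-0.26, adjusted p = 0.0283, and -0.32, adjusted p = 0.00165 without MNA replicate 2). With MNA, 6, 13 and 4 genes of the small-subunit, large-subunit and snoRNP lists fell, beside 12.3% of all tested genes. Without MNA replicate 2 the counts were 22, 25 and 7, beside 26.9% of all tested genes. Of the large-subunit list, 3 genes rose with MNA and 5 without MNA replicate 2, beside 16.3% and 27.2% of all tested genes. At most 3 genes of each of these lists passed when DMSO replicate 2, 3 or 4 or MNA replicate 1, 3 or 4 was left out. Nat10 (-0.38, adjusted p = 0.0194), Tbl3 (-0.49, adjusted p = 0.0198) and Dcaf13 (-0.27, adjusted p = 0.0239) led the small-subunit list, Nmd3 (-0.47, adjusted p = 0.0194), the 60S export adaptor, with Ddx56 and Sdad1 the large-subunit list, and Tcof1 (-0.63, adjusted p = 0.0202), Gar1 and Naf1 the snoRNP list. Without MNA replicate 2 these values were -0.50 for Nat10, -0.65 for Tbl3, -0.36 for Dcaf13, -0.63 for Nmd3 and -0.89 for Tcof1.

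Few genes of Pol I initiation passed the test. Of 10 initiation factors and further Pol I subunits, Twistnb fell with olaparib (-0.34, adjusted p = 0.0202) and Taf1d rose with MNA (0.38, adjusted p = 0.0357, and 0.45, adjusted p = 0.00414 without MNA replicate 2), and the summed level of the list was 94.6% to 100.03% of the DMSO mean with olaparib and 95.2% to 98.5% with MNA. Of all tested genes, 12.8% fell and 14.3% rose with olaparib. Of 11 Pol III-specific subunits, 3 fell with olaparib, among them Polr3e (-0.34) and Polr3f (-0.62). Of 8 Pol II-specific subunits, Polr2c (-0.29) and Polr2a (-0.52) fell and Polr2g (0.28) rose. The median changes of the Pol I, Pol II and Pol III lists with olaparib were -0.07, -0.10 and -0.20. With MNA, 12.3% of all tested genes fell and 16.3% rose. There 3 Pol III subunits, Polr3f (-0.64), Polr3gl (-0.44) and Polr3a (-0.22), and 2 Pol II subunits, Polr2a (-0.46) and Polr2m (-0.30), fell, and Polr3g rose (0.82). The same estimates without MNA replicate 2 were -0.87, -0.63, -0.28, -0.63, -0.43 and 1.04. In that fit 7 Pol III subunits were lower and 1 higher, beside 26.9% and 27.2% of all tested genes. With all 12 libraries the medians of the 3 lists with MNA were -0.05, -0.02 and -0.22.

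Most mRNAs of the ribosomal proteins themselves did not pass the test with olaparib. Of 79 cytosolic ribosomal protein genes tested, 7 rose and 1 fell with olaparib, beside 14.3% and 12.8% of all tested genes, with a median of 0.07, and their summed level was 102% to 106% of the DMSO mean. With MNA 9 of the 79 fell, beside 12.3% of all tested genes, with a median of -0.16. Without MNA replicate 2, 40 fell and 5 rose, beside 26.9% and 27.2% of all tested genes. The sum was 77.9% to 91.7% of the DMSO mean in MNA replicates 1, 3 and 4. Between the treatments, 20 of the 79 were higher with olaparib than with MNA and 1 was lower, beside 10.9% and 10.9% of all tested genes. Without MNA replicate 2 the counts were 49 and 1, beside 21.5% and 20.7% of all tested genes. Many ribosomal protein genes have processed copies, so single counts are uncertain.

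Part of the cell division genes rose. Of 24 such genes, 10 rose with olaparib and 19 without MNA replicate 2, beside 14.3% and 22.5% of all tested genes. With MNA 5 rose, and 15 without MNA replicate 2, beside 16.3% and 27.2% of all tested genes. The rises with olaparib were led by the mitotic kinase Plk1 (1.80, adjusted p = 0.00806), cyclin Ccnb2 (2.58, adjusted p = 0.0115) and Cdk1 (1.27, adjusted p = 0.0124). Those with MNA were led by the replication clamp Pcna (0.60, adjusted p = 0.016, and 0.75, adjusted p = 4.95e-07 without MNA replicate 2). The summed level was 147% to 162% of the DMSO mean in MNA replicates 1, 3 and 4 and 93.8% in MNA replicate 2. Among the 10 tested genes of the MYC network, Myc was at -0.21 with olaparib (adjusted p = 0.141) and at 0.18 with MNA (adjusted p = 0.195), and lower with olaparib than with MNA (-0.39, adjusted p = 0.0191, and -0.45, adjusted p = 0.00218 without MNA replicate 2). The MYC antagonist Mxd4 rose with olaparib (0.95, adjusted p = 0.00127), Mga and Max fell (-0.46 and -0.23), and the other 7 genes did not pass. Of all tested genes, 14.3% rose and 12.8% fell with olaparib. With MNA 4 of the 10 rose, Mxd3 (2.31), Mxd1 (0.67), Mxd4 (0.51) and Mlxip (0.34), and 3 fell, Mga (-0.41), Mnt (-0.46) and Mxi1 (-0.32). Of all tested genes, 16.3% rose and 12.3% fell. The counts were 4 and 3 also without MNA replicate 2, beside 27.2% and 26.9% of all tested genes. Among 7 genes that link ribosome supply to p53, Cdkn2a fell with olaparib (-1.77, adjusted p = 0.000406), as did Trp53 (-0.26, adjusted p = 0.0145). Products of Cdkn2a include ARF, which binds nucleophosmin, but counts per gene do not tell its transcripts apart. The p53 targets Mdm2 (0.33, adjusted p = 0.0179) and Cdkn1a (0.49, adjusted p = 0.024) rose. With MNA Cdkn1a (-0.51, adjusted p = 0.0247) and Trp53 (-0.20, adjusted p = 0.0425) fell. Without MNA replicate 2, 5 of the 7 genes fell, beside 26.9% of all tested genes.

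**Figure D4:**
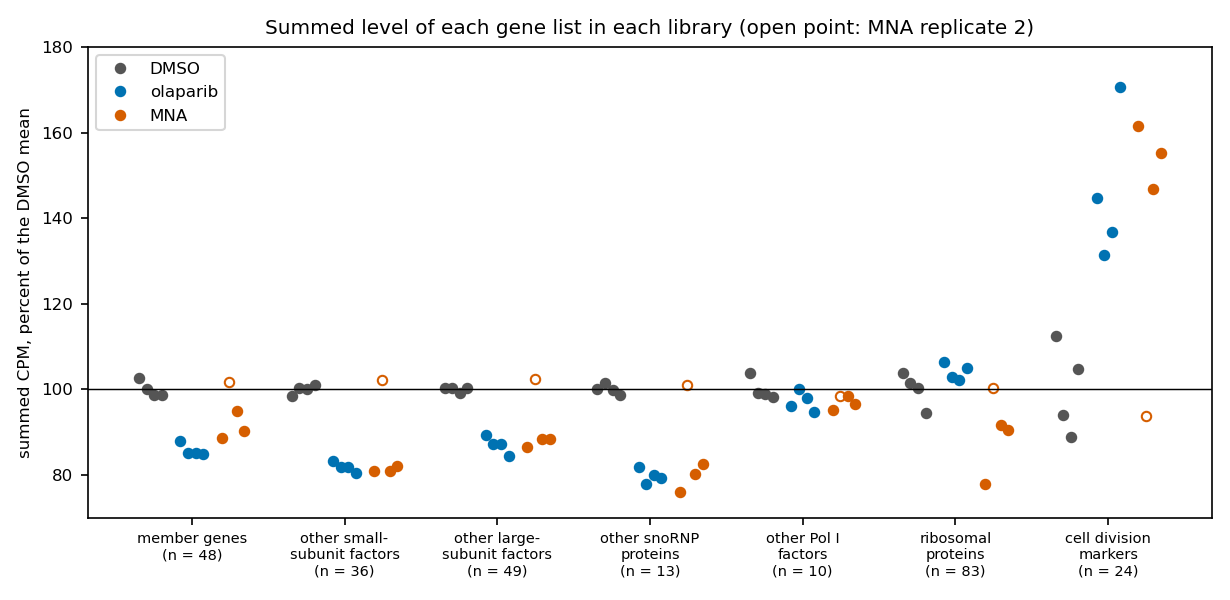
Summed CPM of each gene list in each library, as a percent of the mean of the 4 DMSO libraries (y axis from 70 to 180, line at 100); filled points are libraries and the open point is MNA replicate 2. The 48 genes lie at 84.9% to 87.9% in the olaparib libraries, the ribosomal proteins at 102% to 106% and the cell division markers at 131% to 171%, and MNA replicate 2 lies near 100 for the assembly lists.

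Returning to the printed promoters, Tsr1, Nop2 and Utp4 fell with olaparib (Utp4 -0.38 ± 0.09, adjusted p = 0.0114), and Utp18 was at -0.19 (adjusted p = 0.0842, and 0.0164 without MNA replicate 2). Of the 8 genes with an E-box, 7 fell with olaparib with a median of -0.36. Of the 29 genes with a promoter but no box, 15 fell with a median of -0.28. Of all tested genes, 12.8% were called lower with olaparib, and the share among tested genes with a box was not computed. With MNA, edgeR called 7 of the 29 genes without a box lower and none of the 8 with one, of which 4 were lower at an unadjusted p under 0.05 and 3 by DESeq2, and the medians were -0.17 with the box and -0.15 without. Of all tested genes, 12.3% were called lower with MNA. Without MNA replicate 2 the counts were 5 of 8 and 13 of 29, beside 26.9% of all tested genes. These counts are a description of 37 promoters, and no test of the difference was made.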

How the data were processed

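RNA was sequenced from 12 cultures in 3 groups of 4. Per the study's methods, libraries were made with an Illumina stranded mRNA kit and single-end reads were aligned with STAR 2.5.2b to GRCm38.p5 with Ensembl gene models. The authors deposited the raw read counts per gene, which are whole numbers and not normalized. The strand setting of the counting is not given in the sources used here, so antisense reads may be included. Names, exon lengths and gene positions came from GENCODE (GRCm38), promoters from RefSeq (GRCm38.p6).

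The test was that of edgeR 4.0.16 (R 4.3.3, limma 3.58.1), after TMM scaling, a filter by filterByExpr (minimum count 10, total 15), 1 quasi-likelihood fit over 3 groups and Benjamini-Hochberg adjustment over 12849 genes, at a threshold of 0.05. Standard errors were taken as the log2 fold change divided by the root of the F statistic. Total counts per library of 21146291 to 31446849 set the counting precision. Shared sequence was measured as the share of a gene's 31-base words that occur in another gene. Besides the genes marked in the Results, it was 28.7% for Nop9, 20.3% for Rrp7a and 18.7% for Utp23. For Nol7 it was 14.2% and for Nop53 11.6%, so these counts may also hold reads of other genes. Alternatives were DESeq2 1.42.0, other scalings, no filter, the replicate block, the compared groups alone and leaving out each library. The replicate number as a block rests on a check: same-numbered DMSO and olaparib libraries deviated together (r = 0.227, 0.172, 0.225 and 0.408). MNA and DMSO libraries did not in every pair (0.242, 0.114, -0.00938 and 0.277). For olaparib and MNA libraries r was 0.0696, 0.137, 0.131 and 0.392. Between libraries of different numbers r ran from -0.274 to 0.0981 for olaparib and DMSO. It ran from -0.192 to 0.153 for MNA and DMSO and from -0.265 to 0.140 for olaparib and MNA. With MNA, some pairs of different numbers thus had a higher r than some pairs of the same number.

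The member rule uses names and a minimum count, but it and the gene lists were chosen with earlier results of these data known. Genes named with the values of every library were the Pol I subunits, the 8 genes named singly, the 5 of smallest p in each comparison and those called against the majority, and in the other lists the 3 of smallest p, of which 1 result is not reported here. Sequences of 11 members were not in the promoter table.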

Additional observations from a re-analysis of the deposited data

Results flagged for a closer look

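In 12 of 144 groups of 4 libraries (48 genes in 3 groups), 1 library stood far from the other 3. Chance flags about 1 group in 20. Of the 12, 7 were MNA replicate 2, always the highest of its group. It read 62.6 CPM for Nop58 against 29.8 to 31.6 in the other MNA libraries, 51.0 for Nop14 against 30.7 to 32.2 and 16.7 for Utp14b against 8.84 to 9.83. It read 36.4 CPM for Utp11 against 26.4 to 27.9, 32.5 for Rrp8 against 22.4 to 23.0, 26.7 for Nip7 against 19.7 to 20.2 and 44.8 for Wdr36 against 37.6 to 38.8. DMSO replicate 1, the library of lowest total, was the highest of its group for 3 genes, with 51.4 CPM for Bop1 against 44.2 to 45.4, 50.1 for Nop2 against 43.0 to 44.0 and 63.2 for Polr1d against 54.0 to 55.5. DMSO replicate 2 read 143 CPM for Rrp1 against 133 to 135 in the other DMSO libraries, and olaparib replicate 4 read 34.2 CPM for Nol7 against 36.2 to 36.5. The cause of these values was not tested.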

How the results depend on the processing

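No fold change of a member turned its direction in a called result under any alternative run. With olaparib against DMSO the count of genes called lower (27) was 29 with DESeq2, 26 without a filter, 27 with RLE and 26 with upper-quartile scaling, and 32 with the 2 groups alone, and 17 to 32 when 1 library was left out. With the replicate block it was 27 and no call changed. For MNA against DMSO, the count called higher (1) was 3 with RLE scaling, 4 with upper-quartile scaling, 6 with DESeq2 and 0 with the 2 groups alone by edgeR (6 at an unadjusted p under 0.05), and 0 to 7 without 1 library. The count called lower (10) was 6 without a filter, 14 with DESeq2, 0 with the 2 groups alone (14 unadjusted), and 0 to 25 without 1 library. Without MNA replicate 2 and with the replicate block the counts were 7 and 26. For MNA and DMSO libraries, for which the labels do not say whether the same number means the same donor, the replicate block gave 1 higher and 14 lower. For olaparib against MNA, the counts (1 higher, 7 lower) were 3 and 11 without MNA replicate 2 and with the replicate block, 1 and 7 with the replicate block alone, and 1 to 3 and 5 to 12 without 1 library. The median of all genes moved by less than 0.03 between scalings, and calls over all genes with olaparib were 2017 higher and 1418 lower with upper-quartile scaling against 1834 and 1641. The cause of these shifts was not tested. In leave-one-out fits a group of 3 libraries remained, and depth limits Nol3 most.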
